A study of Mus musculus with 8 samples.

Results

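Ribosomal protein pseudogenes are the mouse genes whose symbol begins with Rpl or Rps and carries -ps, such as Rpl31-ps1 and Rps2-ps13. They were taken from the gene columns of 6 deposited peak lists, and 220 of the 36297 genes named there (0.606%) met this rule, 134 named after proteins of the large ribosomal subunit and 86 after proteins of the small subunit. In GENCODE vM21 (GRCm38, mm10) 210 of them are processed pseudogenes, 4 are transcribed processed pseudogenes and 6 (Rpl10-ps3, Rpl36-ps4, Rpl36a-ps1, Rpl9-ps1, Rpl9-ps6 and Rps12-ps3) are listed as protein coding. Ribosomal proteins are the structural proteins of the large and small subunits of the ribosome, the particle that translates mRNA. A processed pseudogene is a copy of a spliced mRNA that was reverse transcribed and inserted elsewhere in the genome, as a rule without introns or promoter, and ribosomal protein mRNAs left many such copies in mammals. 5-Methylcytosine (5mC) sits mostly on CpG sites and is oxidized to 5-hydroxymethylcytosine (5hmC) by TET enzymes, while deamination of 5mC turns a CpG into TG or CA over evolutionary time.

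The lists come from lung DNA of male C57BL/6J offspring (F1) of dams (F0) that received house dust mite extract (HDM) or saline, with DNA pooled over mice of 3 dams and 1 library per group for each assay, MeDIP-seq for 5mC and hMeDIP-seq for 5hmC. Dams in the F0-HDM groups were given 100 μg of HDM protein by injection 2 weeks before mating and then into the trachea through pregnancy and 3 weeks of lactation, and dams in the F0-Saline groups were given saline. Offspring in the F1-HDM groups were 6 weeks old when sensitized and received HDM again on d14, d18 and d21, and offspring in the F1-Saline groups were given saline. In all groups the airway response to inhaled methacholine was measured on d23 under ventilation, and lung was collected after it. In each assay one list sets F0-HDM_F1-HDM against F0-Saline_F1-HDM (here the double-exposure comparison, since it asks what maternal exposure adds to adult exposure). Another sets F0-HDM_F1-Saline against F0-Saline_F1-Saline (the maternal comparison), and the last sets F0-Saline_F1-HDM against F0-Saline_F1-Saline (the adult comparison). Whole lung was used, so the cell types that carried a mark are not known. There are no replicates, no test between groups was made, and every value here is a description. The lists do not say whether a mark was gained or lost, and the lists that share the F0-Saline_F1-HDM or the F0-Saline_F1-Saline library are not independent. For every peak the caller of the authors gives a score of the coverage shape with its p, listed up to 0.1, but no read count, so the depth behind a peak is unknown. The study describes a limit on the false discovery rate of peaks, but the lists give no such rate, and the counts here are of all listed peaks. The lists differ in length, with 89177, 38333 and 35765 peaks in the double-exposure, maternal and adult comparisons of hMeDIP-seq and 13338, 88438 and 63967 in MeDIP-seq, so counts are read against all genes of the same list and not between lists. In the lists a distance of 0 means that the peak overlaps the gene.

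The sequences below show what differs between copies. The first 4 are copies of Rpl31, a protein near the exit of the ribosomal tunnel, over the same 300 bases, bases 40 to 339 of Rpl31-ps8, with each CpG in capitals. All are read 5′ to 3′ on the pseudogene strand from the RefSeq sequence of GRCm38. Rpl31-ps8 equals its parent transcript at 100% of aligned bases and had a peak in each hMeDIP-seq list. Rpl31-ps1 had a peak in 5 of the 6 lists, Rpl31-ps13 in none although it has as many CpG here as Rpl31-ps8, and Rpl31-ps6, which has the lowest CpG density of the 19 copies, in none.
Rpl31-ps8 (chr15:90764318-90764617, minus strand, 16 CpG): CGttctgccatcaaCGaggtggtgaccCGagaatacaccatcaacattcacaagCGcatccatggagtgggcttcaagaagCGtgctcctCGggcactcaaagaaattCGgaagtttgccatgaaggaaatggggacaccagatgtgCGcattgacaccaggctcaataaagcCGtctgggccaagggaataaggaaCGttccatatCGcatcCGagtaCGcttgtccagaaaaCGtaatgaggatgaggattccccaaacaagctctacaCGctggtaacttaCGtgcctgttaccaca
Rpl31-ps1 (chr12:91890935-91891234, minus strand, 15 CpG): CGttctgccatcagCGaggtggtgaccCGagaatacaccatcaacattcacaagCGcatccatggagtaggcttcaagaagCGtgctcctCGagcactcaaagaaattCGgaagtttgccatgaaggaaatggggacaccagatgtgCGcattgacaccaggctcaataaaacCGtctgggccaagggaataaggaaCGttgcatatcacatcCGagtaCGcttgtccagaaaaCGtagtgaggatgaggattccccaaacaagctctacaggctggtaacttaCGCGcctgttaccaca
Rpl31-ps13 (chr13:100415604-100415903, plus strand, 16 CpG): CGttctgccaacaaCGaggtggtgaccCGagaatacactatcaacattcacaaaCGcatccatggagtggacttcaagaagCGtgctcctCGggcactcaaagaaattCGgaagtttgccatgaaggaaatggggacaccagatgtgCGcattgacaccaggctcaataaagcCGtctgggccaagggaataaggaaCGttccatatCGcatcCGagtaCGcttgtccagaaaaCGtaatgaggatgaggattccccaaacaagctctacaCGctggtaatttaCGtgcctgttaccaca
Rpl31-ps6 (chr5:123466545-123466844, plus strand, 5 CpG): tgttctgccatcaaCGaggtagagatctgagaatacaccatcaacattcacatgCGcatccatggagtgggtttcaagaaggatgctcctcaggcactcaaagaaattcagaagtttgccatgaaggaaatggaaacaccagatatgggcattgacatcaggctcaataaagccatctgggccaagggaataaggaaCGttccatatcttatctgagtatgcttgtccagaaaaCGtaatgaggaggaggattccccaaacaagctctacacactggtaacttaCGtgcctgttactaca

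Against Rpl31-ps8, Rpl31-ps1 differs at 9 of these 300 bases, Rpl31-ps13 at 5 and Rpl31-ps6 at 24. The next 4 windows hold the strongest peak of the set (Rpl10a-ps1), the copy with the highest CpG density (Rpl36-ps3), a copy with peaks in MeDIP-seq lists alone (Rps18-ps2) and a copy of Rpl30, a family of 8 copies with no peak at distance 0 (Rpl30-ps3). The first 3 are centred where the list puts the centre of the strongest peak, and reach past the 5′ end of the pseudogene, and the last is centred on the pseudogene.
Rpl10a-ps1 (chr1:64994353-64994652, minus strand, 22 CpG): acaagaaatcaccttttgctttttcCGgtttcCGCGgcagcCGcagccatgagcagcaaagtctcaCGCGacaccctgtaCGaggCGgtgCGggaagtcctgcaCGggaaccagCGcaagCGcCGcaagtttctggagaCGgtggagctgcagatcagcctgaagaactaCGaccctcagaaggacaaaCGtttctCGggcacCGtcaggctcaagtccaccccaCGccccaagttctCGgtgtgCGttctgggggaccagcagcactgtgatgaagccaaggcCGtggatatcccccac
Rpl36-ps3 (chr12:12911974-12912273, plus strand, 24 CpG): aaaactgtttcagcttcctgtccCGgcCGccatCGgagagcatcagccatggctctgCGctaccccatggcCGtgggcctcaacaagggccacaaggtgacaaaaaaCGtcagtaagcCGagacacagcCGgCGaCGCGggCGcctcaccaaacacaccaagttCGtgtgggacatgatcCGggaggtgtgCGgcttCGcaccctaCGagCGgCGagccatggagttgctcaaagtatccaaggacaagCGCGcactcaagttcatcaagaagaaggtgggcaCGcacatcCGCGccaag
Rps18-ps2 (chr4:8941258-8941557, plus strand, 6 CpG): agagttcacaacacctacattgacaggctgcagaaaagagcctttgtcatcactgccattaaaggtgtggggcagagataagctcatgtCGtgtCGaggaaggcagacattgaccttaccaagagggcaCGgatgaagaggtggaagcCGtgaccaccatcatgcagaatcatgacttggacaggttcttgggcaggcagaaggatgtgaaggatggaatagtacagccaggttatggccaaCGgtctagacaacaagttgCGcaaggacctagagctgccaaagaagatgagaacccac
Rpl30-ps3 (chr2:90747639-90747938, minus strand, 3 CpG): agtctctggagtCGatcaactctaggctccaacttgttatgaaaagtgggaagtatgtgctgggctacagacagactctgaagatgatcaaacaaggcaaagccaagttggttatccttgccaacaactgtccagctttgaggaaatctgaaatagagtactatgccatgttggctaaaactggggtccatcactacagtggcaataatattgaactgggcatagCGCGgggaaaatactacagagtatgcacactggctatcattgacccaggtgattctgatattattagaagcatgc

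hMeDIP-seq peaks overlapped up to 47.3% of these short copies, beside 39.3% of all genes in the same list, and MeDIP-seq peaks overlapped few of them. In the hMeDIP-seq list of the double-exposure comparison 104 of the 220 pseudogenes (47.3%, Clopper-Pearson 95% interval 40.5 to 54.1%) had a peak at distance 0, beside 39.3% of all genes named. In the hMeDIP-seq list of the maternal comparison 58 had one (26.4%, 20.7 to 32.7%), beside 22.2% of all genes. In that of the adult comparison 43 had one (19.5%, 14.5 to 25.4%), beside 24.3% of all genes. In the maternal and adult comparisons the interval holds the share of all genes. In the double-exposure comparison the share of all genes lies just below the interval. A gene of median length in this set has 456 bp, and most genes are far longer. The median score of these peaks was 1.66 in the maternal comparison and 1.86 in the adult comparison, beside 1.65 and 1.82 for all peaks of those lists, and in the double-exposure comparison it was 1.97, above that of all peaks. With peaks of p at most 0.001 the counts were 13 (5.91%, beside 4.42% of all genes), 0 (beside 0.601%) and 2 (0.909%, beside 3.77%).

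In MeDIP-seq no pseudogene had a peak at distance 0 in the double-exposure comparison, where 7.67% of all genes had one. A count of 0 of 220 allows a share of up to 1.66% (upper Clopper-Pearson limit). In the maternal comparison 8 had one (3.64%, 1.58 to 7.04%), beside 34.4% of all genes. In the adult comparison 3 had one (1.36%, 0.282 to 3.93%), beside 27.9% of all genes. The intervals cover the counting error of genes alone. They treat genes as independent, while the 220 pseudogenes stem from 55 parent genes and many share sequence with other copies.

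Genes of like length give a closer comparison, which was chosen after the values had been seen. Of 2178 other processed pseudogenes of 315 to 890 bp named in the lists, 22.6% (20.8 to 24.4%) had an hMeDIP-seq peak in the double-exposure comparison, 12.0% (10.7 to 13.5%) in the maternal comparison and 11.9% (10.6 to 13.3%) in the adult comparison. The intervals of the ribosomal protein pseudogenes lie above each of these, but they treat copies of the same parent as independent. The difference was not tested. In MeDIP-seq the same genes had shares of 0.826%, 4.82% and 3.49%, within the intervals of the ribosomal protein pseudogenes. Some of these genes may be unnamed copies of ribosomal protein mRNAs, since their symbols do not give a parent. Of 598 other genes with -ps in the symbol, 17.4%, 8.86% and 11.0% had an hMeDIP-seq peak in the 3 comparisons in the same order.

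Of 79 intact ribosomal protein genes, 58 are named in the lists. An hMeDIP-seq peak overlapped 21 of the 58 (36.2%, 24.0 to 49.9%) in the double-exposure comparison, 2 (3.45%) in the maternal comparison and 5 (8.62%) in the adult comparison. MeDIP-seq peaks overlapped 0, 8 (13.8%) and 7 (12.1%) of them. The intact genes span introns, and processed copies as a rule do not.

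**Figure D1:**
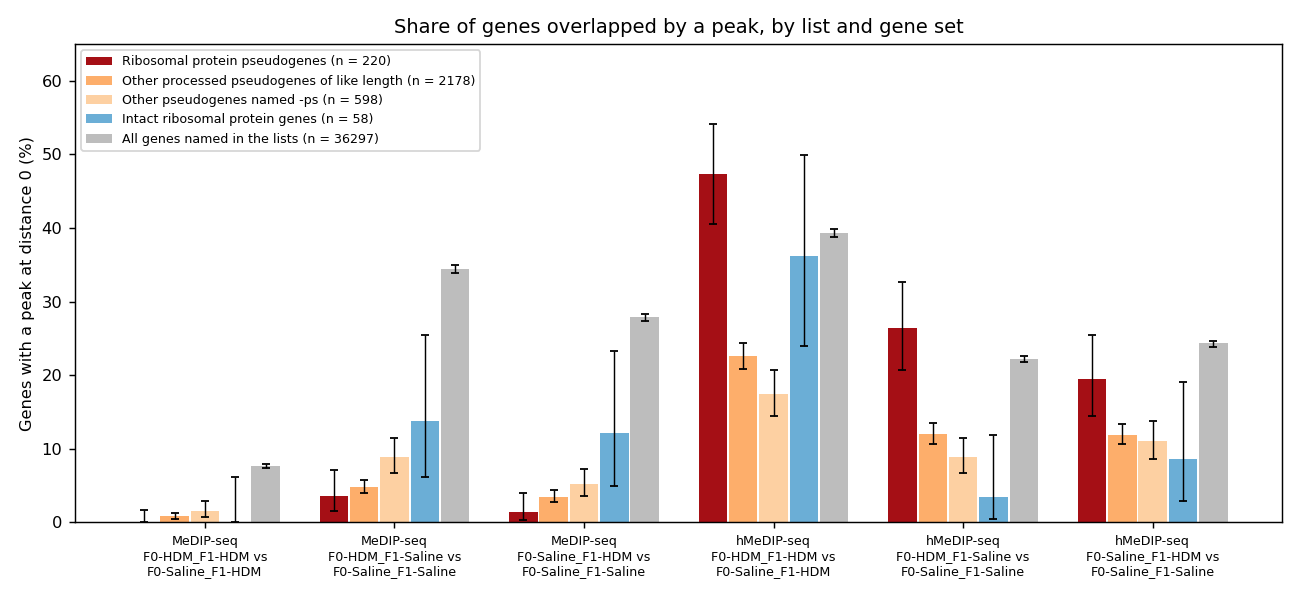
Share of genes with a peak at distance 0 (y axis, percent) in each of the 6 lists (x axis) for 5 gene sets, with Clopper-Pearson 95% intervals as bars. In the hMeDIP-seq lists the ribosomal protein pseudogenes (dark red; 47.3%, 26.4% and 19.5%) stand above the other processed pseudogenes of like length (22.6%, 12.0% and 11.9%), and in the MeDIP-seq lists both are at 4.82% or less.

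The gene columns name 1 gene per side of a peak, so a pseudogene inside another gene may go unnamed. GENCODE vM21 holds 300 genes that meet the rule, of which 80 are named in no list, 25 of these inside a protein-coding gene. By overlap of the annotated span with a peak, 147 of the 300 (49.0%, 43.2 to 54.8%) had an hMeDIP-seq peak in the double-exposure comparison, 86 (28.7%) in the maternal comparison and 68 (22.7%) in the adult comparison. In MeDIP-seq 0, 14 (4.67%) and 7 (2.33%) had one. Among 5207 other annotated processed pseudogenes of like length the hMeDIP-seq shares were 19.1%, 9.51% and 9.24%. By the same overlap of spans, 117 of the 220 named pseudogenes (53.2%, 46.4 to 59.9%) had an hMeDIP-seq peak in the double-exposure comparison. Of the 80 unnamed ones 30 did (37.5%, 26.9 to 49.0%), a lower share with an interval that overlaps. In the maternal comparison the shares were 29.1% of the named and 27.5% of the unnamed, and in the adult comparison 23.2% and 21.2%.

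Most hMeDIP-seq peaks within 2000 bp of a pseudogene overlapped it. In the double-exposure comparison 106 such peaks overlapped a pseudogene and 20 lay beside one, in the maternal comparison 58 and 10, and in the adult comparison 43 and 11. Beside Rpl19-ps11 a peak at 878 bp had a score of 4.44 in the double-exposure comparison, above that of the peak on it (2.96). Counted by gene, within 2000 bp 109 pseudogenes had an hMeDIP-seq peak in the double-exposure comparison (beside 44.8% of all genes), 63 in the maternal comparison (beside 25.4%) and 47 in the adult comparison (beside 27.1%). This is 5, 5 and 4 more pseudogenes than at distance 0. The 5 of the double-exposure comparison are Rpl17-ps10, Rpl29-ps1, Rpl30-ps5, Rps10-ps4 and Rps19-ps9, and the 5 of the maternal comparison are Rpl15-ps3, Rpl17-ps10, Rpl29-ps1, Rplp0-ps1 and Rps16-ps2. The 4 of the adult comparison are Rpl15-ps3, Rpl17-ps10, Rpl21-ps3 and Rpl36-ps1. In MeDIP-seq the counts within 2000 bp were 3 (beside 9.10% of all genes), 30 (beside 41.8%) and 20 (beside 33.8%), so most of the pseudogenes counted there had their peak in the flank. The values nearest the 2000 bp limit were 1994 bp (Rps19-ps9) inside and 2005 bp (Rpl15-ps3) outside.

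Around the middle of the 220 pseudogenes, the hMeDIP-seq peaks of the double-exposure comparison covered up to 102 pseudogenes, at 150 bp toward the 5′ end, and a mean of 3.28 at 2000 to 5000 bp on either side. Those of the maternal comparison reached 63 at the same point, against a mean of 1.95 in the flanks. Those of the adult comparison reached 51, at 250 bp toward the 5′ end, against 2.89. The MeDIP-seq peaks reached 3, 10 and 6 pseudogenes at any point within 5000 bp.

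**Figure D2:**
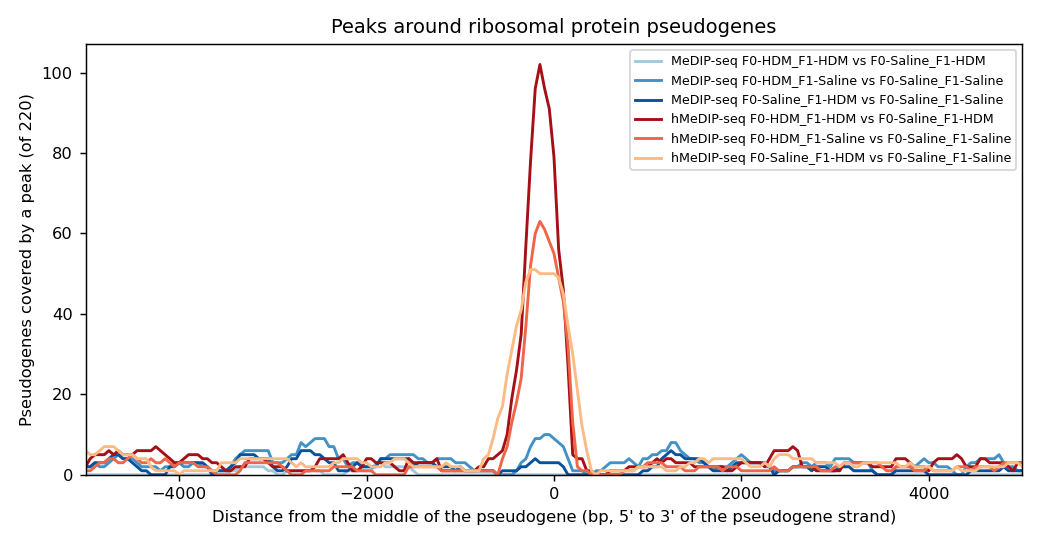
Number of the 220 pseudogenes covered by a peak (y axis) by distance from the middle of the pseudogene in bp, with its 5′ side on the left (x axis), one line per list. The 3 hMeDIP-seq lines rise to 102, 63 and 51 over the pseudogene, and the MeDIP-seq lines stay at 10 or below.

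The centre of the peak lay inside the pseudogene for 96 of the 106 hMeDIP-seq peaks at distance 0 in the double-exposure comparison (90.6%), 55 of 58 in the maternal comparison (94.8%) and 38 of 43 in the adult comparison (88.4%). The centre lay toward the 5′ end of the pseudogene in 95 of the 106 peaks (89.6%), 52 of 58 (89.7%) and 34 of 43 (79.1%). From their 5′ ends to the middle the 220 pseudogenes hold 1892 CpG (3.16 per 100 bp) and from there to the 3′ end 1326 (2.21 per 100 bp). CpG content and peak centres thus leaned to the same end, and the part of the one in the other was not tested.

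Pseudogenes with an hMeDIP-seq peak had more CpG sites than those without. The median was 3.25 CpG per 100 bp in the 104 with a peak in the double-exposure comparison and 2.14 in the other 116. It was 3.90 against 2.38 in the maternal comparison and 4.33 against 2.51 in the adult comparison. The lowest density of a pseudogene with a peak was 0.597 in the first of these lists and 2.01 in each of the others, so below 2 CpG per 100 bp the last 2 hMeDIP-seq lists hold no peak on a pseudogene. The ranges still overlapped, since pseudogenes without a peak reached 5.26, 7.62 and 7.62 CpG per 100 bp. Over all peaks of a list the median was 3.70, 4.08 and 3.47 CpG per 100 bp in the 3 hMeDIP-seq lists and 0.735, 1.05 and 0.985 in the 3 MeDIP-seq lists.

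By steps of CpG density (chosen after the values had been seen), the share with an hMeDIP-seq peak in the double-exposure comparison was 1 of 16 below 1 CpG per 100 bp, 3 of 39 from 1 to below 2, 30 of 65 (46.2%) from 2 to below 3, 39 of 65 (60.0%) from 3 to below 4 and 31 of 35 (88.6%) at 4 or more. The other processed pseudogenes of like length had 1.14%, 8.72%, 36.4%, 62.5% and 75.0% in the same steps. In each of these steps the interval of the ribosomal protein pseudogenes held the share of the others. The median CpG density was 2.87 per 100 bp in the ribosomal protein pseudogenes, 1.57 in the other processed pseudogenes and 0.775 in the flanks of 2000 bp on each side of the ribosomal protein pseudogenes. The part of CpG density in the difference from other pseudogenes was not tested. At 4 or more CpG per 100 bp, all other genes of like length, with or without a pseudogene annotation, had lower shares. These were 51.5% (45.6 to 57.4%), 36.1% (30.6 to 41.9%) and 41.2% (35.5 to 47.1%) in the double-exposure, maternal and adult comparisons. They lie below the intervals of the ribosomal protein pseudogenes there (73.3 to 96.8%, 50.7 to 83.1% and 53.7 to 85.4%). From 3 to below 4 CpG per 100 bp these other genes had 57.8%, 36.2% and 32.6%. The ribosomal protein pseudogenes had 60.0%, 33.8% and 16.9% in that step. In the adult comparison the ribosomal protein pseudogenes had a lower share from 3 to below 4 CpG per 100 bp (11 of 65, 16.9%, 8.76 to 28.3%). The other processed pseudogenes of like length had 33.9% there (27.8 to 40.5%), with intervals that just overlap. At 4 or more it was 25 of 35 (71.4%) against 60.7% in the other processed pseudogenes. Against the same set, the maternal comparison held 22 of 65 (33.8%) against 37.9% from 3 to below 4. Its last step held 24 of 35 (68.6%) against 54.2%.

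**Figure D3:**
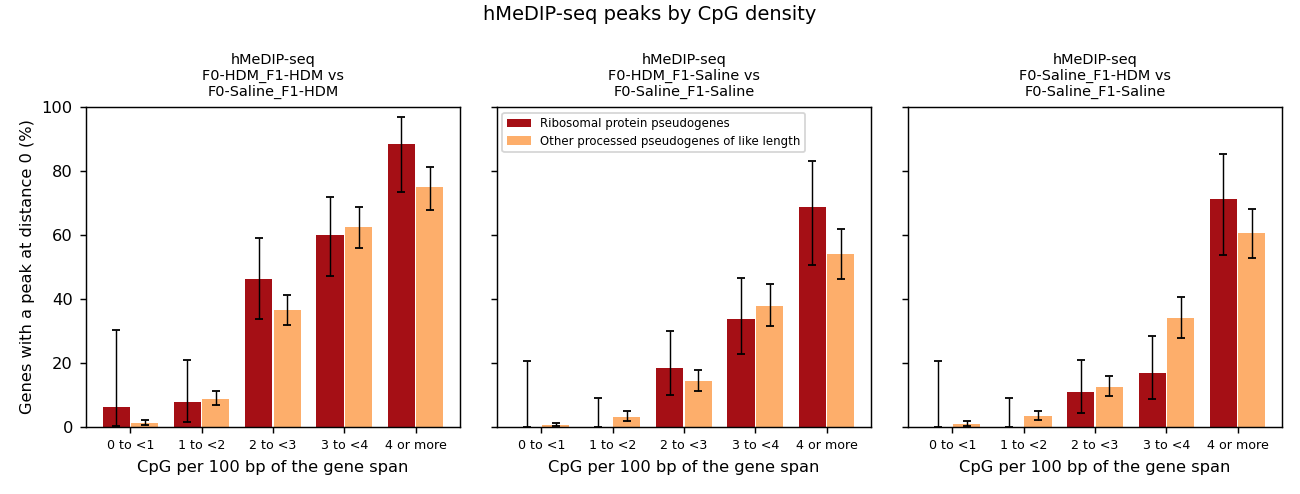
Share of genes with an hMeDIP-seq peak at distance 0 (y axis, percent) by CpG per 100 bp of the gene (x axis, 5 steps) in the 3 hMeDIP-seq lists, for ribosomal protein pseudogenes (dark red) and other processed pseudogenes of like length (orange), with Clopper-Pearson 95% intervals. In each panel the share is higher in the step of 4 or more CpG per 100 bp (88.6%, 68.6% and 71.4%) than below 2.

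Pseudogenes with an hMeDIP-seq peak had also kept more of the CpG sites of the parent mRNA. For 213 pseudogenes a protein-coding transcript of the gene they are named after could be aligned over 50% or more of the pseudogene, with a median identity of 97.2% (12 had 100%). The others are Rpl18-ps1, Rpl29-ps1, Rpl29-ps2, Rpl48-ps1, Rpl7a-ps12, Rps4l-ps and Rpsa-ps3. Of 3948 CpG of the parents in the aligned parts 2759 (69.9%) were still CpG in the copy. Of the 1189 that were not, 80.2% read TG or CA. Those with an hMeDIP-seq peak in the double-exposure comparison had kept 1682 of 2090 CpG (80.5%) and those without 1077 of 1858 (58.0%). The kept shares were 84.6% against 62.6% in the maternal comparison and 86.4% against 64.5% in the adult comparison. The median identity to the parent was likewise higher in copies with a peak (98.4% with and 95.7% without a peak in the first list).

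Close copies are also hard to place with short reads, and the part of this in the results was not tested. The study used paired-end reads of 51 bp, and in the median pseudogene 43.7% of the 51-bp windows have another exact copy in the genome. The median was 52.5% in the 104 pseudogenes with a peak in the double-exposure comparison and 32.0% in the others. How reads with several matches were handled is not given in the sources used here, and a read inside such a window fits several places unless its mate lies in sequence that differs between them. Where under 10% of the windows had another copy, 8 of 48 pseudogenes (16.7%) had a peak in this list, and of these 48 the 9 with 3 or more CpG per 100 bp had one in 5 cases and the 39 with fewer in 3. With 10% to below 50%, 43 of 76 (56.6%) had one, with 50% to below 90%, 35 of 62 (56.5%), and with 90% or more, 18 of 34 (52.9%). In the 27 of these last 34 with 3 or more CpG per 100 bp, 16 had a peak (59.3%), against 27 of 32 (84.4%) with 10% to below 50% of windows copied. In the maternal comparison the share with a peak was 3 of 48 (6.25%) below 10% of copied windows, 20 of 76 (26.3%) from 10% to below 50%, 23 of 62 (37.1%) from 50% to below 90% and 12 of 34 (35.3%) at 90% or more. In the adult comparison the same steps held 1, 19, 17 and 6 pseudogenes with a peak.

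The large and small subunit gave similar shares in the double-exposure comparison. In the hMeDIP-seq list of the double-exposure comparison 65 of 134 large subunit copies (48.5%) and 39 of 86 small subunit copies (45.3%) had a peak at distance 0. In the maternal comparison 38 large (28.4%) and 20 small subunit copies (23.3%) had one. The adult comparison had the reverse order, with 23 (17.2%) and 20 (23.3%). Parent genes numbered 55, and the families ranged from 0 of 8 copies with a peak in the double-exposure comparison (Rpl30) to 6 of 6 (Rpl35a and Rpl36).

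Among the large subunit families, Rpl31 has 19 copies, of which 13 (68.4%) had an hMeDIP-seq peak in the double-exposure comparison, with scores of 1.32 to 3.99 (median 2.69). In the maternal comparison 9 had one (scores 1.29 to 2.43) and in the adult comparison 7 (1.31 to 2.76). The 13 copies had 2.31 to 5.29 CpG per 100 bp and the 6 without a peak 1.85 to 5.03. All 6 copies of Rpl35a and all 6 of Rpl36 had a peak in the double-exposure comparison, with scores of 1.39 to 2.48 and 1.28 to 3.70. In the maternal comparison 5 copies of Rpl35a but only Rpl36-ps3 among the copies of Rpl36 had one.
Copies of Rpl21, Rpl23a and Rpl30 had few. Of 12 Rpl21 copies only Rpl21-ps3 had an hMeDIP-seq peak (score 1.29 in the double-exposure comparison), and of 12 Rpl23a copies 3 had one, with 1.89 to 4.49 CpG per 100 bp against 0.214 to 2.95 in the other 9. None of the 8 Rpl30 copies had one at distance 0. They have 0.862 to 1.74 CpG per 100 bp, with a median identity to the parent of 98.1%. The parts of the parent aligned to them hold 45 CpG over all 8 copies, of which 25 were kept. The part of CpG content or identity in the lack of peaks was not tested.

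Among the small subunit families, Rps2 had the highest median hMeDIP-seq score in the double-exposure comparison of the families with 5 or more copies. Of 7 copies 5 had an hMeDIP-seq peak in the double-exposure comparison, with scores of 1.50 to 4.24 (median 3.84), and 4 had one in each of the other hMeDIP-seq lists (1.34 to 1.85 and 2.16 to 2.82). Of 5 Rps13 copies 3 had a peak in the double-exposure comparison, with scores of 2.39 to 4.04. Rps12, the largest small subunit family, has 17 copies, and 6 (35.3%) had one, with scores of 1.33 to 2.15. The copy of Rps12 with the highest CpG density, Rps12-ps3 (5.26 per 100 bp), which is named here after its values were seen, had no peak in any list, and 100% of its 51-bp windows have another copy. Of 11 copies of Rps19, a protein mutated in human Diamond-Blackfan anaemia, 3 had a peak, with scores of 1.30 to 1.89. Of 9 copies of Rpsa, the laminin receptor protein of the small subunit, 4 had one, with scores of 1.39 to 1.93.

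**Figure D4:**
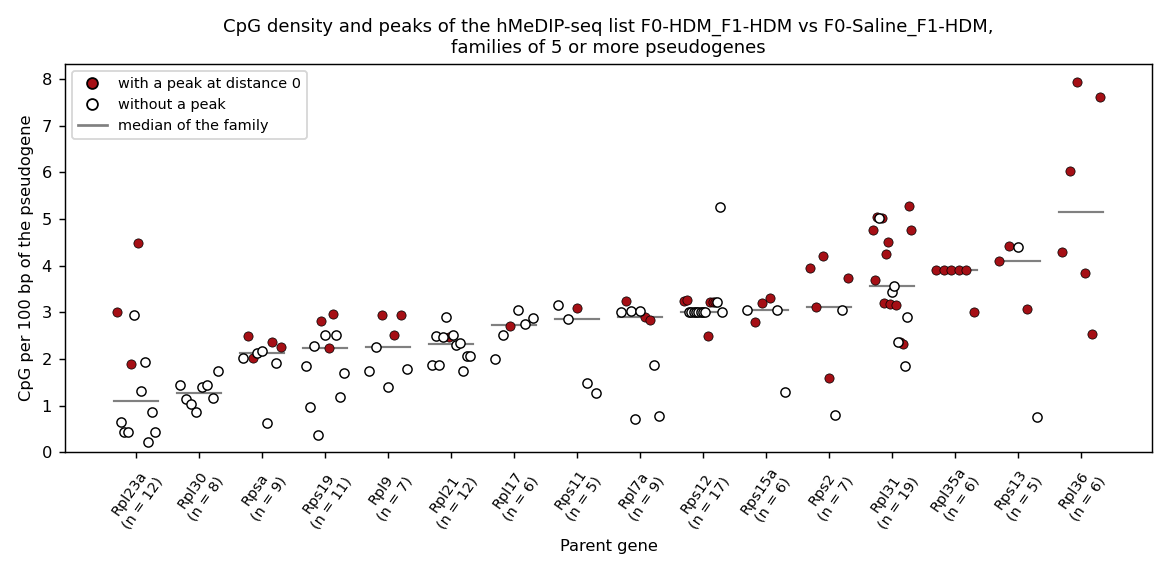
CpG per 100 bp of each pseudogene (y axis) in the families of 5 or more copies, ordered by their median (grey line; x axis, parent gene), with filled points for pseudogenes with a peak at distance 0 in the hMeDIP-seq list of the double-exposure comparison. All 8 Rpl30 copies are open, and all 6 copies each of Rpl35a and Rpl36 are filled.

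By rank, first on the number of lists with a peak at distance 0 and then on the lowest p of the authors' caller, the first 25 pseudogenes are 14 large and 11 small subunit copies, 6 of them from Rpl31. They have 2.01 to 7.94 CpG per 100 bp and, where the parent could be aligned, an identity to it of 95.6 to 100%. Scores rank peaks within a list and are not levels of a mark. Of all pseudogenes 111 had no peak at distance 0 in any list, 44 had one in 1 list, 29 in 2, 31 in 3, 4 in 4, and Rpl31-ps1 in 5. In at least 1 hMeDIP-seq list 107 (48.6%) had one, beside 41.1% of all genes. In at least 1 MeDIP-seq list 9 (4.09%) had one, beside 35.9% of all genes.

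Rpl31-ps1 lies on chromosome 12 from 91890896 to 91891273 between genes, has 18 CpG, and 11.9% of its windows have another copy. Its scores in the maternal comparison were 1.69 (MeDIP-seq) and 1.67 (hMeDIP-seq), 1.34 and 2.14 in the adult comparison, and 3.99 in hMeDIP-seq of the double-exposure comparison (p of the authors' caller 3.26e-05). The MeDIP-seq list of the last comparison has no peak on it. The peaks of the 5 lists overlap each other in the 5′ part of the pseudogene and in the bases before it, the widest from 91890879 to 91891506.

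Of the 4 pseudogenes with peaks in 4 lists, each had its MeDIP-seq peak in the maternal comparison and a peak in all hMeDIP-seq lists. Rpl31-ps9, in Thsd7b on chromosome 1, had an MeDIP-seq score of 1.50 and hMeDIP-seq scores of 3.32, 2.43 and 2.08 in the double-exposure, maternal and adult comparisons. For Rps10-ps1 on chromosome 3 these values were 1.31 in MeDIP-seq and 2.51, 1.93 and 2.85 in hMeDIP-seq. For Rps6-ps1 on chromosome 15, a copy of the substrate of the S6 kinases, they were 1.31 and then 2.06, 1.28 and 1.47. For Rps18-ps3 on chromosome 8 they were 1.36 and then 1.75, 1.75 and 1.62. The MeDIP-seq peaks were all weak, with p of 0.0672 to 0.0955.

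Rpl10a-ps1 on chromosome 1 from 64993951 to 64994604, a copy of the protein of the ribosomal L1 stalk, has all 30 CpG of the aligned parent and held the strongest peak of the set. Its hMeDIP-seq scores were 4.82 in the double-exposure comparison (p 7.15e-07), 2.82 in the maternal comparison (p 0.00238) and 2.57 in the adult comparison (p 0.00503). It was first of the pseudogenes in the first 2 of these lists, and it is the only one with a peak at distance 0 and a p of 1e-06 or less. Of its windows 74.0% have another exact copy. Among the pseudogenes with peaks in 3 lists, the next scores of the double-exposure comparison were 4.24 in Rps2-ps10 (inside Pde6a on chromosome 18), 4.05 in Rps2-ps13 (chromosome X), 4.04 in Rps13-ps2 (chromosome 7) and 3.84 in Rps2-ps11 (inside Usp4 on chromosome 9). These 4 had, in the maternal comparison, 1.64, 1.85, 1.82 and 1.75, and in the adult comparison 2.82, 2.42, 1.72 and 2.16. All 4 thus had a peak in each hMeDIP-seq list and in no MeDIP-seq list.

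Rpl36-ps3, with 25 CpG in 315 bp, had hMeDIP-seq scores of 3.70, 2.26 and 1.40 in the double-exposure, maternal and adult comparisons. In the same order Rpl31-ps8 had 3.59, 2.06 and 2.76. Of the rest of the first 25, Rpl31-ps16, Rpl28-ps3, Rpl27-ps3, Rpl12-ps1, Rps15-ps2, Rpl31-ps11, Rpl19-ps11, Rps2-ps6, Rps10-ps2, Rpl18-ps1 and Rpl31-ps17 had a peak in each hMeDIP-seq list, with scores from 1.31 to 3.25. Among them Rpl12-ps1 has the lowest CpG density of the 25 (2.01 per 100 bp, scores 2.98, 1.36 and 1.54), and Rpl18-ps1 lies inside Ctla4, which encodes an inhibitory receptor of T cells (2.39, 1.63 and 2.83).
In the adult comparison the strongest hMeDIP-seq peak on a pseudogene was that of Rps4l-ps on chromosome 7 (score 3.72, p 9.77e-05), a copy with 50 CpG in 768 bp. It had 2 peaks in the double-exposure comparison (scores 1.67 and 1.72) and none in the maternal comparison. Rps15-ps2 had a score of 2.98 in the adult comparison. The order in the maternal comparison was Rpl10a-ps1 (2.82), Rpl31-ps9 (2.43) and Rpl31-ps10 (2.39).

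**Figure D5:**
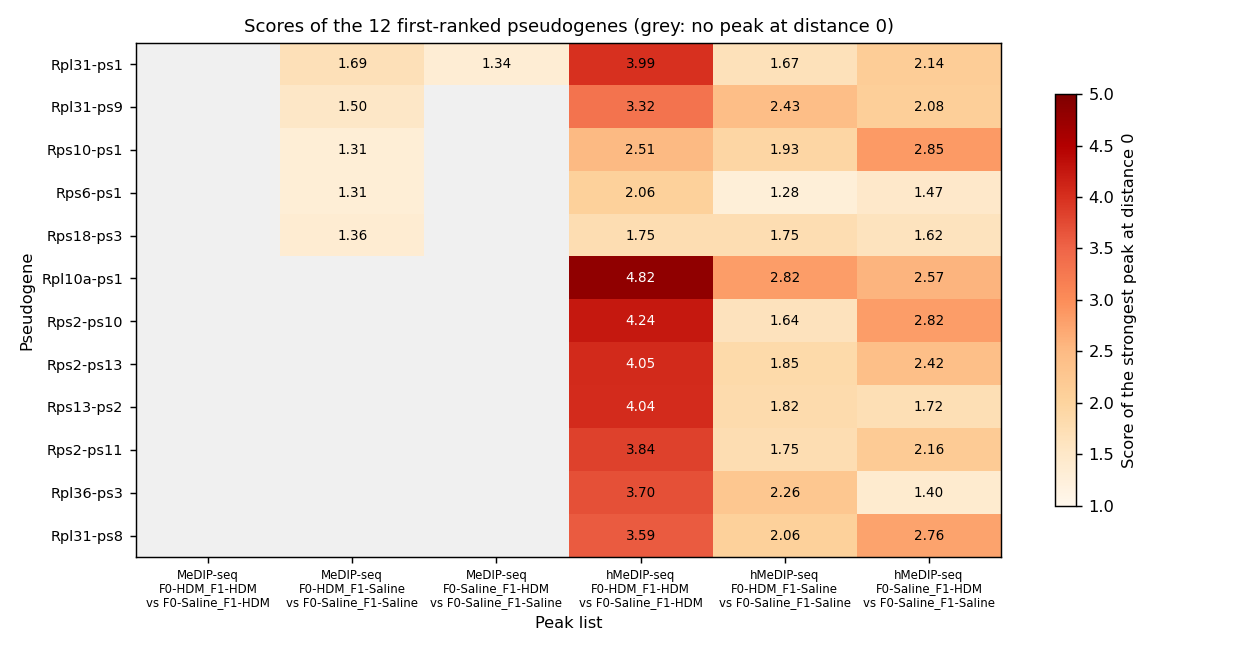
Score of the strongest peak at distance 0 (number and colour) for the 12 first-ranked pseudogenes (rows) in the 6 lists (columns), with grey for no peak. All 12 have a peak in each hMeDIP-seq list, the first 5 have one in the MeDIP-seq list of the maternal comparison, and the MeDIP-seq list of the double-exposure comparison has none.

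MeDIP-seq peaks at distance 0 were few, with scores of 1.31 to 1.69. The 8 pseudogenes of the maternal comparison are Rpl31-ps1 (score 1.69), Rpl21-ps12 (1.53), Rps16-ps2 (1.53), Rpl31-ps9 (1.50), Rps18-ps3 (1.36), Rps18-ps2 (1.32), Rps10-ps1 (1.31) and Rps6-ps1 (1.31). The 3 of the adult comparison are Rps18-ps2 (1.57), Rpl31-ps1 (1.34) and Rps12-ps10 (1.33). Of these 9 pseudogenes, 7 also had an hMeDIP-seq peak in some list, and Rpl21-ps12 and Rps18-ps2 had none. Rps18-ps2 stands apart in sequence too, with 85.1% identity to its parent, 4 of 18 parental CpG kept, 1.76 CpG per 100 bp and no 51-bp window with another copy. For 6 of the 7 (Rpl31-ps1, Rpl31-ps9, Rps10-ps1, Rps18-ps3, Rps6-ps1 and Rps12-ps10) peaks of both assays in 1 comparison shared bases, over 292 to 438 bp, 5 of them in the maternal comparison and Rpl31-ps1 and Rps12-ps10 in the adult comparison. The MeDIP-seq peak of Rps12-ps10 covers only 0.251% of the pseudogene and has its centre outside it, so nearly all of its shared bases lie outside Rps12-ps10. For the last of the 7, Rps16-ps2, the marks were in different comparisons.

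The strongest MeDIP-seq peak within 2000 bp belonged to Rpl31-ps23 on chromosome 8 and lay 1230 to 1244 bp outside it. Its scores were 6.56 (p 2.60e-11), 8.66 (p 2.27e-18) and 8.96 (p 1.63e-19) in the double-exposure, maternal and adult comparisons. The peak has 0.249 CpG per 100 bp in the first of these lists, and the pseudogene itself has 3.16 and no MeDIP-seq peak. The other pseudogenes within 2000 bp in that list were Rpl13a-ps1 (1210 bp, score 1.55) and Rps15a-ps5 (1614 bp, 1.46).

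Of the 220 pseudogenes 48 lie inside a protein-coding gene. Of these 20 had an hMeDIP-seq peak in the double-exposure comparison (41.7%), against 84 of 172 (48.8%) outside such genes. Of all 218 peaks at distance 0 in the 6 lists, 34 are listed with a second gene at distance 0. Chromosome X holds 29 of the pseudogenes, the most of any chromosome. Of these, 9 had an hMeDIP-seq peak in the double-exposure comparison, beside 104 of all 220 (47.3%). The share of all genes on chromosome X was not counted. The double-exposure and maternal comparisons share no library. In hMeDIP-seq 56 pseudogenes had a peak in both, which is 53.8% of the 104 and 96.6% of the 58. Over all genes with a peak the same shares were 54.9% and 97.3%, so the overlap of the pseudogenes was near the background.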

How the data were processed

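MeDIP-seq and hMeDIP-seq libraries, 8 in all and 1 per group and assay, were made by the authors from pooled lung DNA with fragments of about 200 bp. Per the processing notes of the submitters, CASAVA 1.8.0, FastQC and Bowtie 0.12.9 were run with mm10, while the methods of the study name CLC Genomics Workbench for the peaks. The 6 deposited lists give each peak a position, a score from the shape of the read coverage, a p-value of the authors' caller, and 1 gene per side with its distance in bp. The deposited p-value equals the upper normal tail of the score in 100% of peaks (within 0.01 on the log10 scale). The second-named library was taken as the control from the labels. No column of the lists gives reads, so the depth is unknown.

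Genes were counted at distance 0 and within 2000 bp. Spans come from GENCODE vM21 and sequence from the RefSeq GRCm38 assembly. All 220 symbols matched. Parents were aligned with Biopython 1.88 (local, match 2, mismatch -3, gap opening -5, gap extension -2), and alignments over less than 50% of a pseudogene were dropped. Matplotlib 3.10.9 drew the plots, and scipy 1.17.1, pandas 2.3.3, numba 0.67.0 and numpy 2.4.6 under Python 3.11.15 did the rest. Genes of like length lie between the 5th and 95th percentile of the pseudogene lengths (315 to 890 bp). The functions were tested on simulated data. The pseudogenes and gene lists were chosen with earlier results of these data known. Named are the first 25 by rank, the 3 lowest p per list, pseudogenes with peaks of both assays that share bases, those with a p of 1e-06 or less within 2000 bp, and the members of counts of 5 or fewer, except a few that are not reported here. Others, and the comparisons by length, CpG density, parent, family, copied windows and profile, with peaks beside the pseudogenes and with all genes at p of 0.001 or in both lists, were chosen after values were seen. Counts were repeated with peaks of p at most 0.001 or at most 1e-06, without recurrent places (where at least 3 of the 5 remaining lists have a peak sharing 1 bp), with genes by annotated span, windows of 1000 and 5000 bp, an overlap of 50% of the shorter peak and, added after seeing the data, the peak centre inside the pseudogene. Sequencing reads were not analysed here.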

Additional observations from a re-analysis of the deposited data

How the results depend on the processing

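Of 66 alternative counts, 38 stayed within 1.5 times the reported count and 28 did not. The threshold on p changed them most, as fewer peaks are then counted. At a p of 0.001 or less, hMeDIP-seq peaks at distance 0 were left on 13 pseudogenes in the double-exposure comparison, 0 in the maternal comparison and 2 in the adult comparison, and at 1e-06 or less on 1, 0 and 0. MeDIP-seq peaks at distance 0 were left on 0 under both thresholds in every list. Within 2000 bp, 16, 1 and 3 pseudogenes were left in hMeDIP-seq at 0.001 and 1, 0 and 0 at 1e-06, and in MeDIP-seq 1 in each list under both, Rpl31-ps23. Without recurrent places the MeDIP-seq count at distance 0 in the maternal comparison was 3. A window of 1000 bp gave 0 in MeDIP-seq for the double-exposure comparison and 11 for the adult comparison, and a window of 5000 bp gave 10, 54 and 38 in the 3 MeDIP-seq lists. The share of all genes was not counted for these windows, without recurrent places or at 1e-06. Nor was it counted within 2000 bp at 0.001, so these counts have no background beside them. By annotated span the hMeDIP-seq counts were 117, 64 and 51, and with the peak centre inside the pseudogene 94, 55 and 38. Of the peaks at distance 0, 65, 56 and 42 hMeDIP-seq peaks and 0, 7 and 3 MeDIP-seq peaks shared a base with a peak of another list, counted over lists that share libraries, and 63, 56, 41, 0, 7 and 3 did so with an overlap of 50%. In hMeDIP-seq the shares with 1 base were 61.3%, 96.6% and 97.7%, beside 58.1%, 95.7% and 91.6% of all peaks. No paired analysis was possible because each group has 1 pooled library per assay. Depth per peak is unknown, and 15 of the 218 peaks at distance 0 have a p of 0.001 or less.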
